A study of Arabidopsis thaliana with 8 samples.

Results

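Primed and unprimed seedlings of wild-type Arabidopsis thaliana, accession Col-0, were compared 4 h after the end of a priming heat treatment, across all genes of the Affymetrix ATH1 array. Seedlings were 5 days old and had grown on agar with MS medium at 22 °C under 16 h of light and 8 h of darkness. Primed seedlings received 1.5 h at 37 °C, rested for 1.5 h at 22 °C, were heated for 45 min at 44 °C and then went back to growth conditions, whereas unprimed seedlings were not heated. The study heated seedlings in the dark; no source used here says whether the unprimed seedlings spent the same hours in the dark. Each condition was 1 array of RNA from a pool of whole seedlings, and the experiment was done once, so that no difference below has a replicate check, an error or a p-value.

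The comparison used 2 of the 8 arrays of the series and all 22746 probe sets left after 64 control probe sets were set aside, with 21021 genes that had a probe set of their own. Of the probe sets, 21194 were assigned to 1 gene, 1078 to several genes and 474 to none. Values are on the log2 scale, and a difference is the primed minus the unprimed value, so that 1.00 is a 2-fold difference. A probe set was counted as higher or lower when the difference was at least 2-fold. The scale ends at a floor of 2; a value within 0.05 of it is called at the floor, has no order below that level, and makes a difference from it depend on where the floor lies.

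Heat unfolds proteins, and plant cells answer it through heat shock factors, transcription factors that switch on genes of heat shock proteins. Small heat shock proteins hold unfolded proteins in a soluble state, HSP70 and HSP90 with their co-chaperones refold them, and HSP100/ClpB proteins pull apart aggregates. A mild heat treatment lets seedlings survive a later heat that would kill them, and the study calls the time between both heat treatments the memory phase.

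Primed seedlings of 4 h had 2128 probe sets (9.36%) above the 2-fold limit and 2258 (9.93%) below it, together 19.3% of all probe sets. In the values as deposited, the median difference was 0.00 over all probe sets, of which 24.8% were at the floor in both arrays. Over those not at the floor in both arrays it was -0.03. The 5th percentile over all probe sets was -1.51 and the 95th was 1.6. All 8 processed arrays had medians from 6.99 to 7.08, so these medians cannot show a change shared by most transcripts. The upper tail was the longer one. At a limit of 16-fold (4 on the log2 scale), 227 probe sets were higher and 68 lower; at 256-fold (8 on the log2 scale), 27 were higher and none was lower. Of the 20 highest single genes, with differences from 8.24 to 12.23, 8 had an unprimed value at the floor, and of the 20 lowest, from -7.79 to -4.87, 3 had a primed value at the floor.

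The balance of higher and lower calls moved with the scaling. On 9 reference genes, each array's own median level was subtracted as an alternative. These medians were 13.28 in the primed array, where ACT2 was the middle gene, and 13.50 in the unprimed array, where GAPC2 was, so that every difference grew by 0.22. With this shift 2786 probe sets were higher and 1675 lower, and 62.5% of the counted probe sets were higher against 48.5% with the values as deposited. The reference genes' own differences did not show such a shift: they had a median of -0.05 and a mean of 0.09, with a range from -0.23 to 0.55. Centring on that median difference, an alternative chosen after seeing the data, added 0.05 and gave 2257 probe sets higher and 2111 lower, or 51.7% higher. Counts below are for the values as deposited, and those of lists stand beside 9.36% higher and 9.93% lower over all probe sets.

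**Figure D1:**
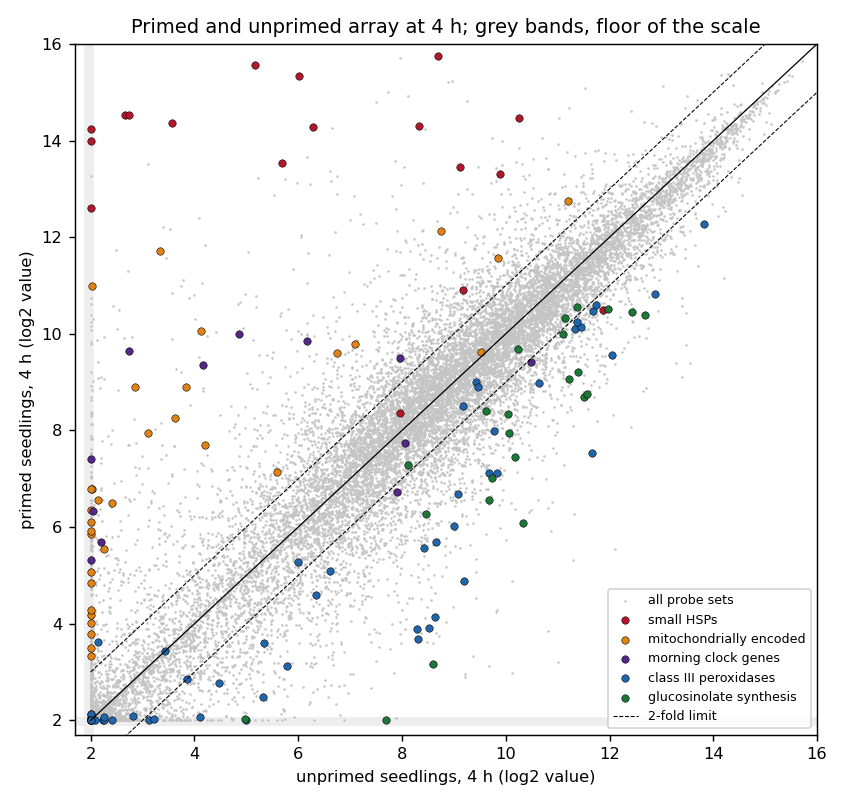
Each point is 1 of 22746 probe sets, with its log2 value in unprimed seedlings on the x axis and in primed seedlings on the y axis at 4 h; the solid line marks equal values, dashed lines the 2-fold limit and grey bands the floor. Most small HSPs and mitochondrially encoded transcripts lie far above the diagonal, while most class III peroxidases and glucosinolate genes lie below it.

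The floor touched a limited share of the calls. Both arrays were at the floor for 5631 probe sets, of which none could be counted. A further 434 probe sets were at the floor in unprimed seedlings alone, and 199 of these were higher in primed seedlings. In the opposite direction, 343 were at the floor in primed seedlings alone, and 64 of them were lower. The remaining 1929 higher and 2194 lower probe sets were above the floor in both arrays. Across levels, measured as the mean of the 2 arrays, 18.4% of the probe sets between 4 and 6 on the log2 scale were higher and 23.1% lower, whereas between 12 and 16 the shares were 5.42% and 5.21%.

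Small heat shock proteins stood at the top of the comparison. Of 18 probe sets for small HSPs, 16 were higher, 1 was lower, and the list median was 7.92, beside 0.00 for all probe sets. HSP22.0, which works in the endoplasmic reticulum, was at 14.23 in primed seedlings and at the floor in unprimed ones, a difference of 12.23. HSP21, the small HSP of plastids, was at 14.00 against the floor. No unprimed array of the series had either gene above the floor, so the size of these differences depends on the floor. Other members had measured values on both sides. HSP17.6C, a cytosolic class I protein, was at 15.57 against 5.17, and HSP17.6II, a class II protein, at 15.34 against 6.01. The mitochondrial HSP23.6 was at 14.28 against 6.29, a difference of 7.99.

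The smallest difference among the 16 higher members was 1.74, for HSP14.7. Not every small HSP was higher. HSP21.7 was within the 2-fold limit at 8.37 against 7.97, and HSP15.4 was lower at 10.50 against 11.88, a difference of -1.38. HSP15.4 is the 1 member of the list that was below every unprimed array, and the 16 higher members were above every unprimed array. A probe set at 15.76 against 8.70 is shared by the genes AT1G59860 and AT1G07400 and cannot be split between them.

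Among the ATP-dependent chaperones, the heat-inducible members had the largest differences and several housekeeping members lay within 2-fold. Of 16 probe sets for HSP70 and HSP110 proteins, 11 were higher and none lower, with a median of 2.33. HSP70B had a difference of 7.73, HSP70T-2 was at 12.88 against 5.53, and HSP70-4 at 15.22 against 8.88. By contrast HSC70-1, the main cytosolic HSP70 of unstressed cells, was at 14.74 against 14.51, a difference of 0.23, and the plastid proteins cpHsc70-1 and cpHsc70-2 differed by 0.48 and 0.25. Mitochondrial members differed from each other: MTHSC70-2 had a difference of 2.81 and mtHsc70-1 of 0.27.

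HSP90 genes showed the same split by member. HSP90.1, the heat-inducible cytosolic HSP90, was at 14.79 in primed seedlings, with a difference of 7.29. HSP90.2, another cytosolic member, differed by 1.44 and the mitochondrial HSP90.6 by 1.28, while the plastid HSP90.5 and HSP90.7 of the endoplasmic reticulum stayed within 2-fold at 0.37 and 0.77. Against the unprimed array of 8 h, HSP90.1 was the 1 member past the limit, and HSP90.2 and HSP90.6 differed by 0.94 and 0.83. All 3 ClpB genes were higher. HSP101, the cytosolic disaggregase needed for acquired thermotolerance, was at 14.26 against 6.66, mitochondrial CLPB4 at 12.36 against 8.21, and plastid CLPB3 at 14.06 against 10.70.

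Of 16 co-chaperones, 12 were higher and none lower, with a median of 1.71. The members fell into a group of 5 with differences from 6.52 to 7.27 and a group of smaller differences. The first group held BAG6, ROF2, FES1A, HOP3 and the J-domain protein of locus AT2G20560; ROF2 is a peptidyl-prolyl isomerase that binds HSP90, and FES1A is a partner of cytosolic HSP70. ROF2 was at 14.92 against 8.11. Its relative ROF1 was at 13.78 against 11.72. HOP1, SGT1B, BAG7 and P23-1 lay within 2-fold. Over the whole J-domain family, taken from the words of the annotation, 27 of 87 were higher and 2 lower; the highest, AT1G71000, was at 13.26 in primed seedlings, and no unprimed array had it above the floor.

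**Figure D2:**
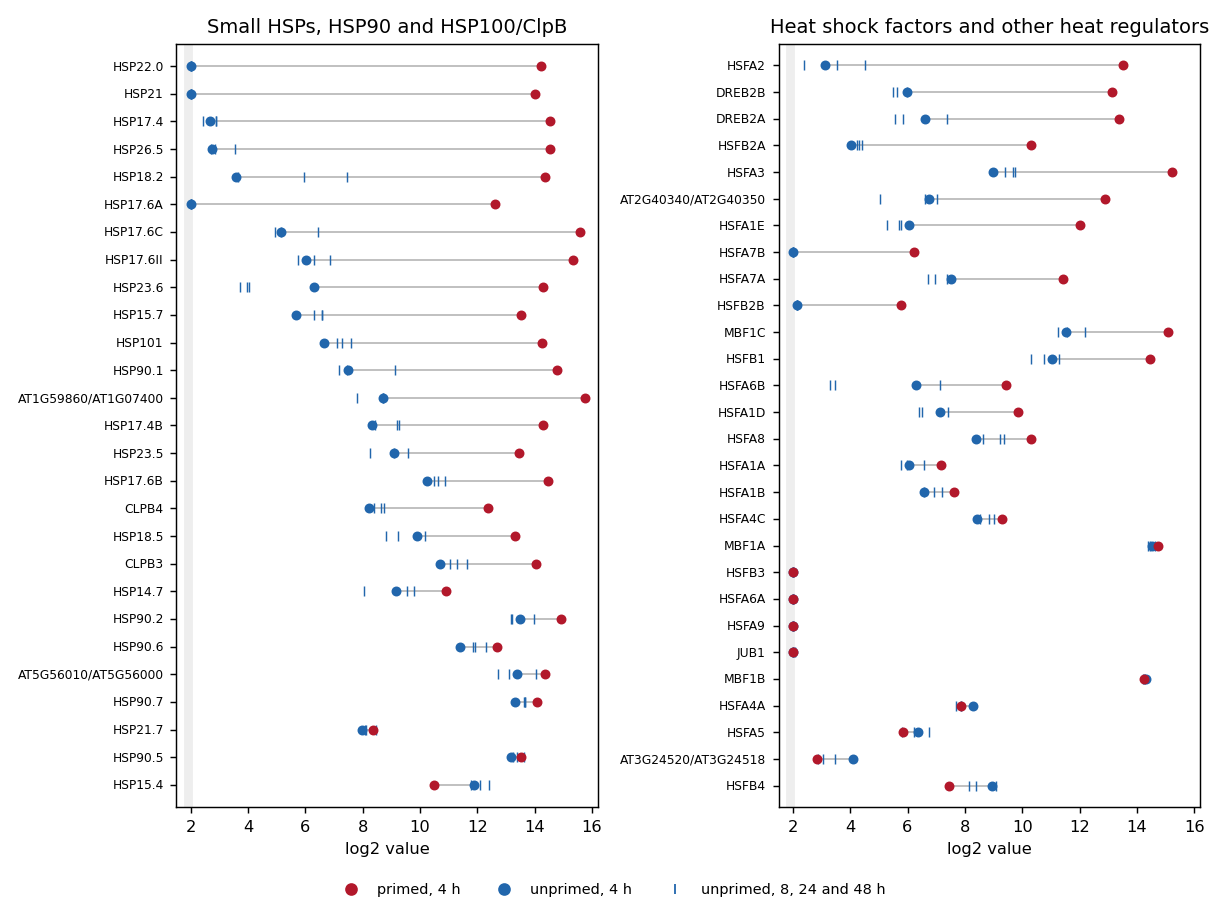
Log2 values of small HSPs, HSP90 and HSP100/ClpB genes (left) and of heat shock factors and other heat regulators (right) in the primed array (red point) and the unprimed array (blue point) of 4 h; blue ticks are the unprimed arrays of 8, 24 and 48 h and the grey band is the floor. For most genes the red point lies right of every blue mark, as for HSP21 at 14.00, while HSP15.4 and HSFB4 lie left of them.

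The regulators of the heat response were themselves higher at 4 h. Of 15 class A heat shock factors, the activators of the family, 10 were higher and none lower, with a median of 1.94. HSFA2, the heat-induced factor that prolongs acquired thermotolerance, was at 13.52 against 3.11, a difference of 10.41. HSFA3, which acts downstream of DREB2A, was at 15.23 against 8.97. HSFA1E, of the group present before heat, differed by 5.95. The other members of that group differed less: HSFA1D by 2.74, HSFA1A by 1.13 and HSFA1B by 1.06. HSFA6A and the seed factor HSFA9 were at the floor in both arrays.

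Several factors were high at 4 h and not at 8 h. HSFA7B was at 6.23 in primed seedlings and at the floor in unprimed ones, a difference of 4.23, and the pair of 8 h differed by 0.01. HSFA7A and HSFA6B had differences of 3.91 and 3.12 at 4 h beside 0.56 and 0.27 at 8 h. Class B factors, which lack the activation motif of class A and include repressors, were split. HSFB2A was at 10.30 against 4.02, HSFB2B at 5.76 against 2.13 and HSFB1 at 14.47 against 11.03, while HSFB4, a factor of root stem cells, was lower at 7.45 against 8.94.

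Other heat regulators followed the same pattern of single high members. DREB2A and DREB2B, AP2-type factors that link heat and drought, were at 13.37 against 6.61 and 13.13 against 5.98. MBF1C, a co-activator needed for thermotolerance, was at 15.08 against 11.52, a difference of 3.56. Its relatives MBF1A and MBF1B differed by 0.21 and -0.06, and JUB1 was at the floor in both arrays.

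Genes of the unfolded protein response in the endoplasmic reticulum were higher in part. Of 25 probe sets of the unfolded protein response, 11 were higher and none lower, with a median of 0.80. The J-domain protein ERDJ3A was at 10.99 against 3.74, and BIP3, the inducible HSP70 of this compartment, was at 8.36 with the unprimed array at the floor. The membrane-bound factors BZIP28, BZIP60 and BZIP17, which unfolded proteins of the compartment activate, differed by 2.98, 1.83 and 1.50. The calreticulins CRT1 and CRT2 and the disulfide isomerase PDIL1-1 lay within 2-fold. TIN1, a gene named for its response to tunicamycin, was at 13.23 against 5.23. The unprimed arrays of 8, 24 and 48 h had TIN1 higher than that of 4 h, at 7.36, 8.01 and 7.81.

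Genes of protective sugars and of the oxidative stress response showed a few large differences among many small ones. Galactinol synthase makes the precursor of raffinose, a sugar that accumulates in stressed tissue, from inositol that MIPS enzymes supply. MIPS2 was at 12.39 against 4.08, GOLS1 at 11.12 against 3.78, and GOLS2 at 7.87 with the unprimed array at the floor. MIPS1 differed by 0.17, and over the list 4 of 12 were higher and none lower. Among 23 genes of reactive oxygen metabolism, 4 were higher and 3 lower, with a median of -0.11. The higher genes were APX2, a heat-induced cytosolic ascorbate peroxidase at 9.94 against 2.80, and the zinc finger factors ZAT6, ZAT10 and ZAT12 with differences of 7.28, 5.78 and 4.72. The constitutive APX1 differed by 0.40. The 3 lower genes were RBOHD, an NADPH oxidase, by -1.41, the catalase CAT3 by -1.12 and the plastid dismutase FSD2 by -1.05.

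Transcripts encoded in the mitochondrial genome were higher as a group. Of 43 probe sets, 31 (72.1%) were higher, none was lower and 9 were at the floor in both arrays; the median difference was 2.70. With values below 4 raised to 4, 24 were higher and the median was 1.55. By comparison, the 5 nuclear chromosomes had between 8.27% and 9.92% of their probe sets higher and between 9.24% and 10.6% lower. ATMG00060, which encodes NADH dehydrogenase subunit 5, was at 10.98 in primed seedlings and at the floor in all 4 unprimed arrays. ATMG00160, cytochrome c oxidase subunit 2, was at 10.05 against 4.13, and ATMG00070, NADH dehydrogenase subunit 9, at 8.89 against 2.85. Most unprimed values were low: 26 of the 43 were at the floor in unprimed seedlings, and 15 of the 31 higher probe sets started from it. Summed on the linear scale, the 43 probe sets gave 26037 in primed and 4945 in unprimed seedlings, and 8179 in primed seedlings at 8 h.

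Plastid-encoded transcripts lay on the other side. None of 72 probe sets was higher and 29 (40.3%) were lower, with a median of -0.84. With the shift of 0.22 or against the mean of the 4 unprimed arrays 16 were lower, and with the shift of 0.05 there were 23. The lowest were ATCG00180, a subunit of the plastid RNA polymerase, at 9.83 against 12.36, ATCG01110, a subunit of the plastid NAD(P)H dehydrogenase, at 7.24 against 9.62, and ATCG00170, another polymerase subunit, at 8.91 against 11.20. Plastid values were well above the floor, with 71 of 72 above it in both arrays. Their linear sum was 286542 in primed and 454154 in unprimed seedlings. The unprimed arrays of 24 h and 48 h had sums of 330171 and 398662, so the primed value lay below every unprimed array. How organelle RNA was labelled beside messenger RNA from the nucleus is not stated in these sources, and its part in these differences was not tested.

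Nuclear genes of mitochondria and plastids had smaller differences. Among 11 mitochondrial stress genes, 4 were higher: the alternative dehydrogenase NDB2 by 3.28, UPOX by 2.66, AT12CYS-2 by 1.89 and the alternative oxidase AOX1A at 11.45 against 10.15, while 5 members, among them AOX1B and AOX1D, were at the floor in both arrays. Mitochondrial carriers and import proteins had 10 of 46 higher and 1 lower. Of 38 probe sets for photosystem and antenna proteins, 2 were higher, 1 was lower and the median was 0.00, and their linear sum was 600144 in primed and 569193 in unprimed seedlings. The 2 higher ones were antenna probe sets, LHCB2.3 at 9.78 against 8.12 and a probe set shared by AT2G05070 and AT2G05100. LHCB2.3 ranged up to 13.85 in the other unprimed arrays, above the primed value. Among 26 FtsH, Deg and Clp proteases of organelles, FTSH6, a plastid protease, stood apart at 6.49 with the unprimed array at the floor; the next highest, FTSH10, differed by 0.99.

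The circadian clock genes of the morning were higher in the pair of 4 h, and here the unprimed array itself was low. Morning genes peak around dawn and repress the evening genes, which peak near dusk. Of 14 morning probe sets, 9 were higher and 2 lower, with a median of 3.41. This median was 1.61 with values below 4 raised to 4, 1.34 against the mean of the 4 unprimed arrays and 2.27 against the unprimed array of 8 h. LNK3, a co-activator of the clock, was at 9.65 against 2.74; the unprimed arrays of 8, 24 and 48 h were at 3.11, 9.48 and 10.75. PRR7, a repressor of CCA1 and LHY, was at 9.99 against 4.86, with the other unprimed arrays at 2.89, 10.03 and 10.03. CCA1 was at 5.31 against the floor, and the other unprimed arrays were at the floor, 4.92 and 5.12. The primed value of 4 h thus lay between the unprimed values of 24 h and 48 h for LNK3, just below them for PRR7 and just above them for CCA1. Only 3 of the 9 higher morning genes exceeded every unprimed array, and LHY, the partner of CCA1, was at the floor in both arrays and thus not measured in this pair.

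Of 11 evening probe sets, 4 were higher and none lower, and all 4 exceeded every unprimed array. GI, which couples the clock to flowering, was at 10.38 against 6.28, with 5.71, 9.88 and 9.99 in the other unprimed arrays. LKP2, a blue-light receptor of the ZTL group, was at 6.24 in primed seedlings and between 2.15 and 2.16 in all 4 unprimed arrays. PRR5 was at 11.16 against 7.46. TOC1, ELF3 and ELF4, at the core of the evening loop, differed by -0.12, -0.20 and -0.05. No source used here gives the clock hour of each harvest, so a shift in clock time and a response to heat cannot be told apart for genes whose unprimed values swing as widely as the difference.

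**Figure D3:**
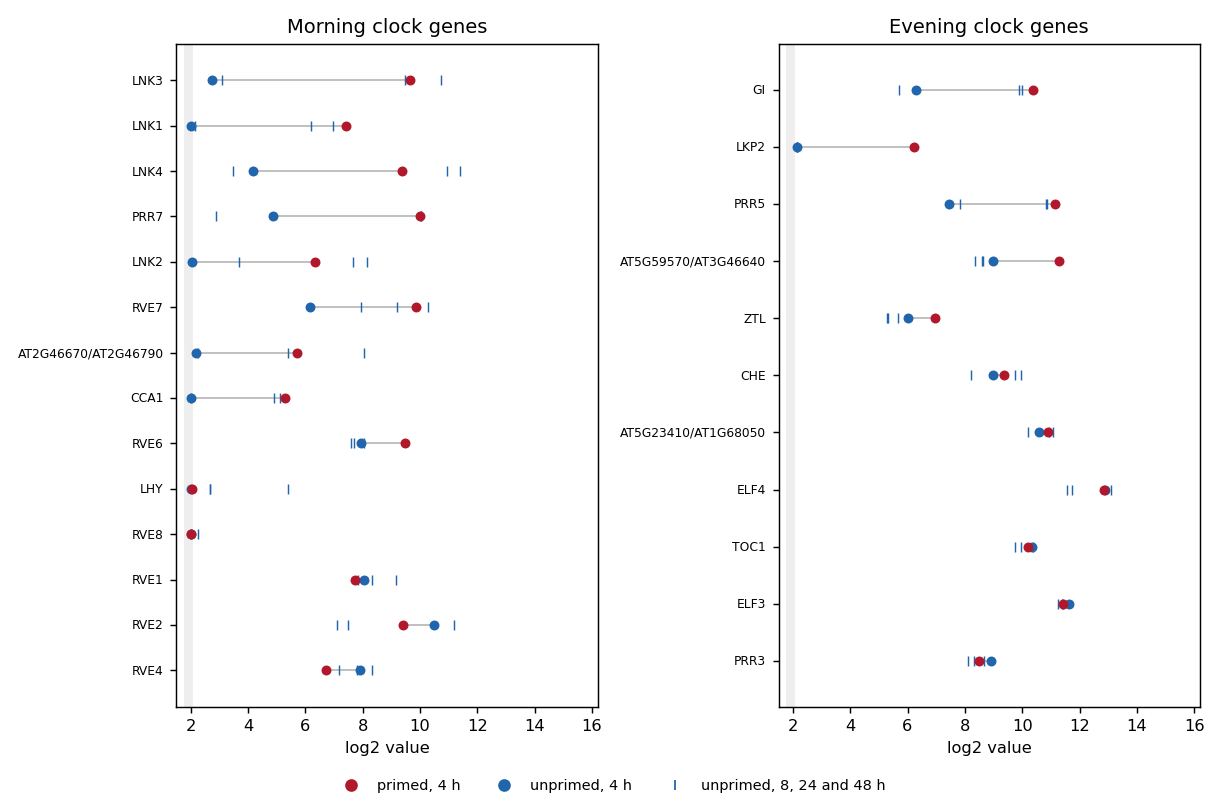
Log2 values of morning (left) and evening (right) clock genes in the primed (red point) and unprimed (blue point) arrays of 4 h, with blue ticks for the unprimed arrays of 8, 24 and 48 h and a grey band for the floor. For LNK3 and PRR7 the red point falls within the range of the ticks, while for LKP2, at 6.24, it lies right of all of them.

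Genes of other stresses were split. Cold-regulated genes had 7 of 10 higher and none lower, with a median of 1.37. Of the 7 higher ones, 5 exceeded every unprimed array. With values below 4 raised to 4, 5 were higher and the median was 0.78. Against the mean of the 4 unprimed arrays 5 were higher and the median was 1.02. RD29A, a target of DREB factors, was at 13.46 against 8.04. The dehydrins ERD10 and COR47 were at 15.14 against 13.04 and 15.36 against 14.14. CBF1 and CBF2, the cold-induced activators, differed by 0.17 and 0.00, and CBF3 by 1.17 at a low level, 3.75 against 2.58. Of 21 genes of abscisic acid, the hormone of water shortage, 5 were higher (23.8%), RD29B most at 7.40 against 3.35, and 1 was lower (4.76%). Among 14 low-oxygen genes 5 were higher, including the pyruvate decarboxylases PDC2 and PDC1 by 3.36 and 3.14 and the lactate dehydrogenase LDH1 by 1.91, while ADH1, the alcohol dehydrogenase of the same pathway, was just inside the limit at 0.97. The 2 lower low-oxygen genes were the trihelix factor HRA1 at 6.54 against 7.56 and the sucrose synthase SUS4 at 4.05 against 5.05, both close to the limit. Jasmonate genes had 2 of 23 higher (8.7%) and 1 lower (4.35%), LOX2 at 5.18 against 8.84. Against the mean of the 4 unprimed arrays, 6 jasmonate genes were lower and 3 higher. Salicylate and immune genes had 1 of 19 higher (5.26%) and 2 lower (10.5%), and PR5 was the lowest with 5.75 against 8.70. Over all probe sets, 9.36% were higher and 9.93% lower.

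Of 14 light-related genes, 5 were higher (35.7%) and 1 lower (7.14%), with a median of 0.56. Of the 5 higher ones, 3 exceeded every unprimed array. Against the mean of the 4 unprimed arrays 4 were higher and 2 lower, with a median of -0.06. Against the unprimed array of 8 h, 7 were higher and 4 lower. Among single members, ELIP1, an early light-induced protein of thylakoids, was at 9.53 against 4.08. PIF4, a transcription factor of warmth-induced growth, was at 5.28 against 2.67. PIF4 ranged from 2.12 to 6.08 over the unprimed arrays, which spans the primed value, and ELIP1 reached at most 6.98 in them. Autophagy genes had 4 of 20 higher (20%) and 1 lower (5%). ATG18A was the highest at 8.39 against 5.33, and the cargo receptor NBR1 was at 12.44 against 11.32. Starch genes had 3 of 29 higher and 3 lower (10.3% each), close to the 9.36% and 9.93% of all probe sets. Of the 3 higher ones, 1 exceeded every unprimed array. Among single members, BAM1, a plastid amylase induced by stress, was at 11.76 against 8.86, and SS3, a starch synthase, at 5.34 against 7.56.

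**Figure D4:**
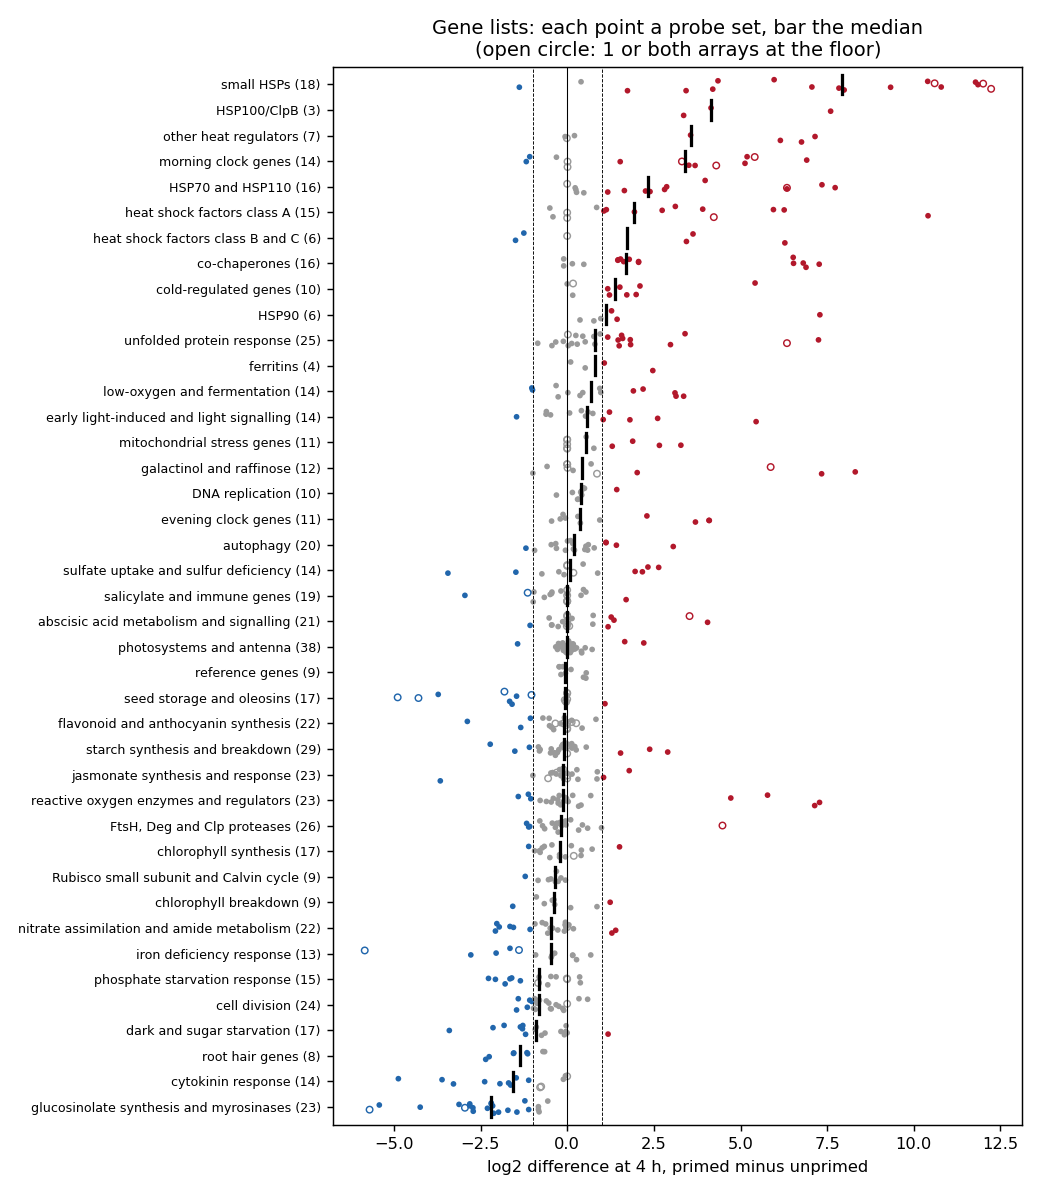
Each point is a probe set of 1 of the gene lists chosen by locus, placed by its log2 difference at 4 h (x axis); red is at least 2-fold higher, blue at least 2-fold lower, open circles have 1 or both arrays at the floor, and the black bar is the list's median, with the number of probe sets in brackets. Small HSPs lie at the top with a median of 7.92, and glucosinolate genes lie at the bottom with -2.19.

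On the lower side, the list with the lowest median held genes of glucosinolate synthesis together with myrosinases, the enzymes that act on glucosinolates. Glucosinolates are the sulfur-rich defence compounds of the cabbage order. Of 23 probe sets, 19 were lower and none was higher, with a median of -2.19, and all 19 lay below every unprimed array. FMO-GSOX1, which oxidises aliphatic glucosinolates, was at the floor in primed seedlings against 7.70. CYP79B2, the entry enzyme of the indolic branch, was at 6.09 against 10.33, and CYP83B1, the next enzyme of that branch, at 8.69 against 11.50. MYB29, an activator of the aliphatic branch, was at the floor against 4.98, while MYB51, an activator of the indolic branch, was within the limit at 7.28 against 8.11. A probe set shared by AT1G16410 and AT1G16400 was at 3.17 against 8.59.

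Cytokinin response genes were lower in 9 of 14 cases and higher in none, with a median of -1.55. These are mostly type-A response regulators, which the hormone induces and which dampen its signal. ARR16 was at 6.49 against 10.10, ARR8 at 6.09 against 9.37 and ARR9 at 8.74 against 11.12. GNL, a GATA factor that promotes greening, was at 3.62 against 8.49, a difference of -4.87; it ranged from 5.41 to 9.86 over the unprimed arrays. ARR3 and ARR15 differed by -0.05 and -0.11.

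Nutrient genes were lower in part. Of 13 iron deficiency genes, 5 were lower and none higher: IRT1, the main iron importer of the root, was at the floor in primed seedlings against 7.88, and NAS4, a nicotianamine synthase, at 7.18 against 9.96. Of 15 phosphate starvation genes, 6 were lower, the lowest being PS2 at 2.49 against 4.76. Against the unprimed array of 8 h, 9 iron and 10 phosphate genes were lower. Of 22 nitrate and amide genes, 6 were lower and 2 higher. The nitrate reductases NIA1 and NIA2 were at 9.75 against 11.82 and 12.44 against 14.09, and the nitrate transporter NRT1.1 at 7.26 against 9.22. Of 14 genes of sulfate uptake and sulfur deficiency, 4 were higher and 2 lower, with a median of 0.09. Of the 4 higher ones, 2 exceeded every unprimed array. Against the mean of the 4 unprimed arrays 2 were higher and 4 lower. Among single members, the transporters SULTR2-1 and SULTR1-2 were lower by -3.44 and -1.48, while SHM7 and LSU2, genes induced by sulfur shortage, were higher by 2.64 and 2.17.

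Of 17 genes induced by darkness or sugar starvation, 7 were lower and 1 was higher at 4 h, with a median of -0.89, and this rested on the unprimed array used. Against the mean of the 4 unprimed arrays 4 were lower and the median was -0.29, and against the unprimed array of 8 h 2 were lower, 6 were higher and the median was 0.61. In the pair of 8 h, none was lower and 8 were higher, with a median of 0.74. SEN1 was at 9.38 against 11.52, a difference of -2.14, and its difference at 8 h was 3.02. DIN11 was at 2.69 against 6.09, and ASN1, the asparagine synthetase named for the dark, differed by -0.08 at 4 h and 4.03 at 8 h. The unprimed values varied widely between arrays, from 6.54 to 11.82 for SEN1 and from the floor to 8.10 for ASN1. With the unprimed array of 8 h in place of that of 4 h, SEN1 turned from lower to higher, at 2.84.

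Cell division genes had 5 of 24 lower and none higher, with a median of -0.81. With the shift of 0.22 there were 2 lower genes, whereas 15 were lower against the mean of the 4 unprimed arrays (median -1.19) and 14 against the unprimed array of 8 h (median -1.07). The lower genes act at mitosis and cytokinesis: HINKEL, a kinesin of the division plane, was at 6.32 against 7.78 and KNOLLE, a syntaxin of the new cell plate, at 9.46 against 10.61. Their linear sum was 5282 in primed and 9309 in unprimed seedlings. DNA replication genes were not lower: 1 of 10 was higher, CDC6 at 7.46 against 6.03, the median was 0.40, and the 5 MCM helicase genes of the list lay within 2-fold. CDC6 did not exceed every unprimed array. Against the mean of the 4 unprimed arrays no replication gene was higher or lower and the median was 0.04. Against the unprimed array of 8 h the median was 0.11. At 8 h, 14 of the 24 division genes were lower.

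Root hair genes were used as markers of a cell type within the whole seedling. Of 8, 6 were lower and none higher, with a median of -1.35 (4 lower with the shift of 0.22 or with values below 4 raised to 4), and none was at the floor in either array. PRP3, a proline-rich wall protein, was at 7.28 against 9.63, LRX1, a leucine-rich extensin, at 6.43 against 8.68, and EXPA7 at 4.34 against 5.48. Their linear sum was 414 in primed and 1645 in unprimed seedlings at 4 h, and 1372, 620 and 686 in the unprimed arrays of 8, 24 and 48 h. In whole seedlings, fewer cells of a type and less RNA per cell cannot be told apart, here and for every list below. The part of root hair cells in the other lower lists was not tested.

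Seed storage and oleosin genes were lower in 8 of 17 cases and higher in 1, with a median of -0.07, and 10 of the 17 were at the floor in primed seedlings. With values below 4 raised to 4, 4 were lower, and against the unprimed array of 8 h 3 were. SESA2, a storage albumin, was at the floor against 6.89, and SESA5 at the floor against 6.30. The unprimed arrays disagreed strongly on these genes: SESA5 ran from the floor to 10.47 among them, and the linear sum of the list was 592, 404, 3163 and 233 at 4, 8, 24 and 48 h in unprimed seedlings, beside 179 in primed seedlings at 4 h. These genes are known from maturing seeds, and their part in the other lists was not tested.

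Among the families defined by words of the annotation, those described here had the highest shares of lower members, most of them families of the cell wall and apoplast. The words were adapted after values of these data had been seen. Class III peroxidases, which cross-link wall polymers, had 33 of 53 lower (62.3%) and 1 higher, with a median of -1.24. PER64, the peroxidase of lignin in the Casparian strip, was at 4.14 against 8.64, and AT2G35380, peroxidase 20, at 3.68 against 8.30. Lipid transfer proteins had 27 of 69 lower and 4 higher, GDSL lipases 24 of 65 lower and 1 higher, and pectin-modifying enzymes 41 of 147 lower and 2 higher. Expansins and xyloglucan transferases, which loosen the wall, had 21 of 54 lower and 5 higher: XTH6 was at 3.61 against 8.59, while XTR6 and EXLA2 were higher at 13.84 against 10.25 and 12.40 against 9.52. Aquaporins had 7 of 25 lower and none higher (4 lower with the shift of 0.22 and against the mean of the 4 unprimed arrays), TIP2;2 of the vacuole membrane among them at 9.96 against 12.56. All of these shares stand beside 9.93% lower over all probe sets.

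The single genes with the lowest differences included further proteins of the wall and of secretion. AT5G54370, annotated as related to late embryogenesis abundant proteins, was the lowest of all at 3.21 in primed seedlings, a difference of -7.79. AT4G11210, a dirigent protein, of the family that guides the coupling of lignin precursors, was at 2.97 against 10.13, and 2 more of that annotation followed, AT2G21100 at 2.95 against 9.22 and AT4G13580 at 5.31 against 11.29. CHX17, a root cation exchanger, was at 5.54 against 12.10, and HCHIB, the basic chitinase, at 3.13 against 9.68. TAS2, a precursor of trans-acting small RNAs, was at 4.35 against 8.98. Of the 20 lowest genes, 15 were also lower at 8 h and 17 lay within 2-fold at 24 h.

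Cytosolic ribosomal proteins had 4 of 164 higher and none lower, with a median of -0.13. Translation initiation factors had 9 of 58 higher (15.5%) and none lower, and DEAD box RNA helicases 10 of 37 higher (27.0%) and 1 lower, beside 9.36% higher over all probe sets. Proteasome subunits had 1 of 33 higher at 4 h and 16 at 8 h. Aminoacyl-tRNA synthetases had 3 of 49 lower (6.12%, below the 9.93% of all probe sets), AT1G17960 most at 7.13 against 10.21. In the ubiquitin system, F-box proteins had 34 of 319 higher (10.7%, close to the 9.36% of all probe sets) and 6 lower, with 189 at the floor in both arrays; FBS1, an F-box protein named for stress, was at 9.94 against 2.25. UBC12, a ubiquitin-conjugating enzyme, was at 7.13 in primed seedlings with the unprimed array at the floor.

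Families of transcription factors were mixed, with large differences for single members, and their counts stand beside 9.36% higher and 9.93% lower over all probe sets. AP2 and ERF factors had 14 of 72 higher (19.4%) and 6 lower (8.33%); besides DREB2A and DREB2B, CRF7 was at 13.57 against 7.86. NAC factors had 11 of 68 higher and 8 lower (11.8%), from NAC13, a factor of mitochondrial stress signalling, at 11.71 against 7.89 to NAC1, a factor of lateral roots, at 3.22 against 7.49. WRKY factors had 8 of 60 higher (13.3%) and 5 lower (8.33%), WRKY33 most at 6.74 against 3.18. MYB factors had 12 of 164 higher (7.32%) and 21 lower (12.8%), with MYB45 at 4.42 against 8.09 and MYB16, a factor of epidermal cells and cuticle, at 3.35 against 6.65. Helix-loop-helix factors had 2 of 58 higher (3.45%) and 10 lower (17.2%). Auxin-responsive families had 7 of 90 higher (7.78%) and 23 lower (25.6%), with IAA29 higher by 2.55 and AT4G34760 at 5.85 against 9.61. Receptor-like kinases had 7 of 220 higher and 33 lower, and 19 lower with the shift of 0.22.

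**Figure D5:**
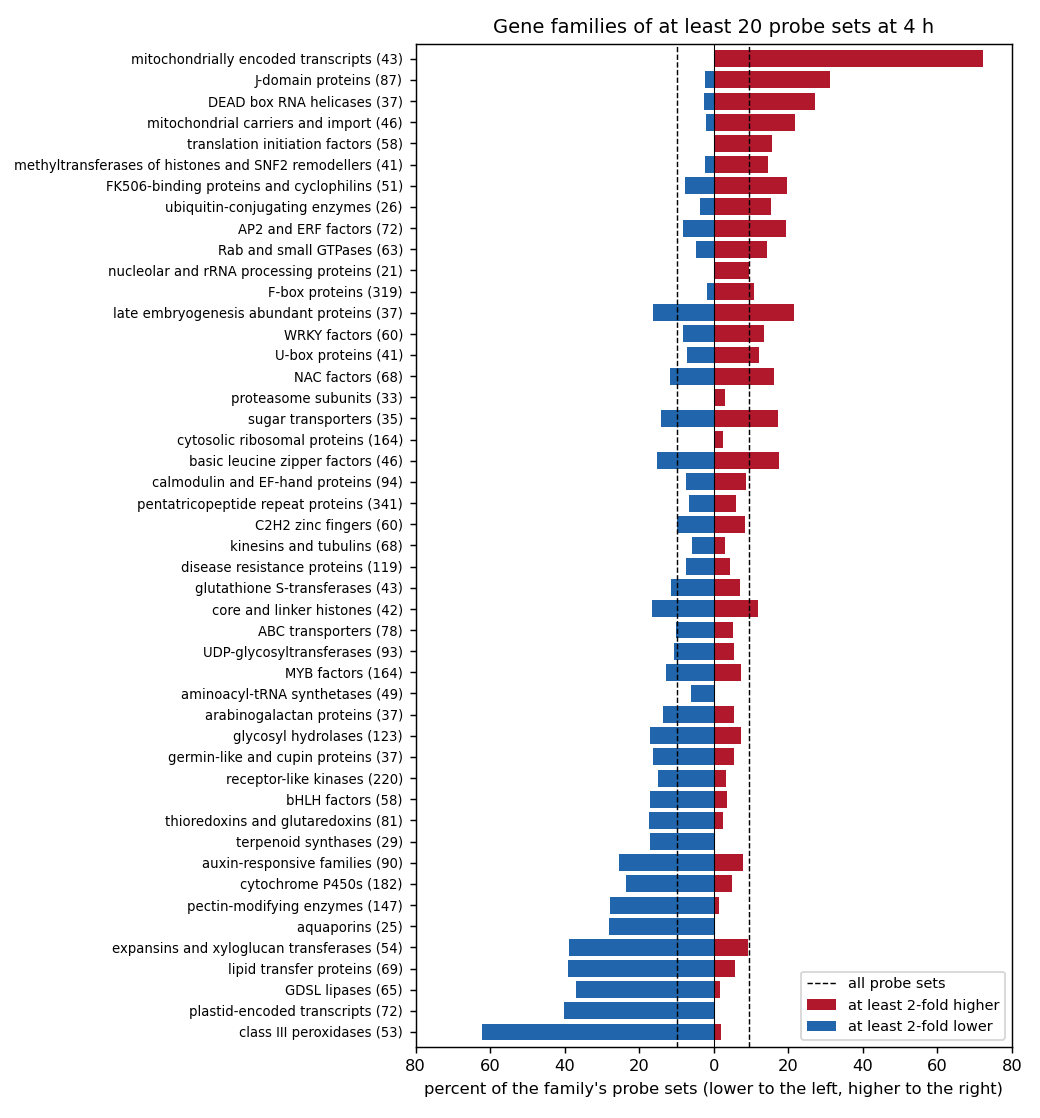
Percent of the probe sets of each gene family that were at least 2-fold higher (red, right) or lower (blue, left) at 4 h, for families of at least 20 probe sets, with the number of probe sets in brackets; dashed lines mark the shares over all probe sets, 9.36% higher and 9.93% lower. Mitochondrially encoded transcripts have the longest red bar at 72.1% and class III peroxidases the longest blue bar at 62.3%.

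Chromatin genes included a few members that started from the floor. AT1G75600, annotated as a putative histone H3.2, was at 10.24 in primed seedlings and at the floor in unprimed seedlings of 4 h and 8 h. Over core and linker histones, 5 of 42 were higher (11.9%) and 7 lower (16.7%), beside 9.36% and 9.93% over all probe sets. The linker histone HIS1-3 was at 5.73 against 8.46. SDG37, a SET domain protein, was at 8.53 against 3.91, and the remodeller CHR40 at 6.05 with the unprimed array at the floor. CML37, a calmodulin-like protein, was at 10.58 against 2.43, and EMB3111, a pentatricopeptide repeat protein, at 10.62 against the floor.

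The differences of 4 h were set against the other 3 unprimed arrays, which were not replicates but pools of other times. Of the 2128 higher probe sets, 2038 were above all 4 unprimed arrays and 1522 exceeded all of them by at least 2-fold. Of the 2258 lower probe sets, 2099 were below all 4 and 1302 by at least 2-fold. The unprimed array of 4 h is 1 of these 4 and was used to choose the probe sets. The same primed array enters every comparison. These counts are thus high in part by selection and are no replicate check. As a measure of how much unprimed pools differed among themselves, 767 probe sets (3.37%) passed 2-fold between the unprimed arrays of 8 h and 4 h, 1364 between 48 h and 4 h, and 619 between 48 h and 24 h, which lie 1 day apart; time and pool cannot be told apart in these numbers. The 8 arrays had medians from 6.99 to 7.08 and 26.3% to 26.9% of probe sets at the floor.

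The other pairs hold other arrays and showed how much of the 4 h difference was still present. At 8 h, 7.33% of all probe sets were higher and 7.91% lower; of the probe sets counted at 4 h, 1026 of 2128 were also higher and 974 of 2258 also lower, with 26 and 54 passing in the opposite direction. At 24 h, where 2.76% were higher and 1.67% lower, 212 were still higher and 144 still lower, and 123 of those lower at 4 h were higher. At 48 h, with 0.747% higher and 0.932% lower among all probe sets, 88 and 89 remained. Within 2-fold at all later times were 1006 of the higher probe sets (47.3%), such as HSFA7B and the zinc finger gene AT3G46070, which was at 8.14 against the floor at 4 h, and 1085 of the lower ones (48.1%).

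Many values lay close to the limit. Up to 0.09 past the limit there were 234 higher probe sets and just outside, between 0.90 and 0.99, there were another 262; on the lower side the numbers were 278 and 306. Counts of lists with small differences, such as the division genes, move with such members, whereas the members described above by values lie mostly far from the limit.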

How the data were processed

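The authors deposited log2 expression values of 8 Affymetrix ATH1 arrays, hybridised with biotin-labelled material from total RNA of whole seedlings. Per the submitters' processing notes GCRMA and RMA were used, with versions and roles not given in the sources used here, and the genome build is likewise not given. The values end at a floor of 2 and are rounded to 2 decimals. The table also holds 4 columns of the authors' own differences between primed and unprimed arrays, which were not used. Groups were taken from the sample labels.

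The primed value of 4 h minus the unprimed value of 4 h was computed for each probe set, rounded to 2 decimals and counted at a limit of 1.00. With 1 array per condition no test was run. Gene lists, 41 by locus and 48 by words of the deposited annotation, and 2 organelle genomes were described by counts and medians; 11 listed genes had no probe set. Of several probe sets of a gene, the one with the higher mean over the 8 arrays was kept. Symbols came from RefSeq for assembly TAIR10.1. Named were the 20 highest and 20 lowest single genes, the 15 highest and lowest above 4 in both arrays, the 6 members of each list with the largest differences, and all members of the HSP, heat shock factor and clock lists. Others named were chosen after their values were seen. The comparison, members, lists and rules were chosen with earlier results of these data known. Counting was tested on simulated data of 22746 probe sets, where all 200 planted differences were recovered. These lay well past the limit and the simulated noise was small. The test thus checked the counting code and not the reliability of calls, least of all near the limit. Alternative scalings, filters, controls and limits were tried, with 1 scaling chosen after seeing the data. A description of promoter motifs was planned and not run, since promoter sequences were not used here. The depth of an array is not a count; precision is limited by 1 array per condition. Python 3.11.15, pandas 2.3.3, NumPy 2.4.6 and matplotlib 3.10.9 were used.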

Additional observations from a re-analysis of the deposited data

How the results depend on the processing

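The counts of 2128 higher and 2258 lower probe sets moved by more than 1.5-fold under the other fold limits alone: 3558 and 3877 at 1.5-fold, and 806 and 625 at 4-fold. They were 2058 and 2311 after quantile normalization, 2786 and 1675 with each array's median over the reference genes subtracted, 2257 and 2111 centred on those genes' median difference (an alternative chosen after seeing the data), 2027 and 2142 without probe sets at or below 4 in both arrays, 1923 and 2003 with values below 4 raised to 4, 1989 and 2101 for probe sets of 1 gene, the same in the other deposited table, 2174 and 2288 against the mean of the 4 unprimed arrays, and 2373 and 2484 against the unprimed array of 8 h. Against the mean of the unprimed arrays, 6 of 584 named genes turned direction: GBSS1 to -0.40, LHCB2.3 to -1.40, AT3G63480 to -0.02, PIF5 to -0.27, RVE2 to 0.34 and BCAT2 to 0.20. Against the unprimed array of 8 h, 6 turned: GBSS1 to -0.69, GGCT2-1 to -0.12, BCAT2 to 2.2, DRM1 to 1.43, SEN1 to 2.84 and AT1G17960 to 0.02; the cause was not tested. Raising values below 4 moved 110 of the 584 and turned none, by construction toward smaller differences. Of 91 gene lists, none with a median past the 2-fold limit turned direction, whereas the dark and sugar starvation list, at -0.89, turned to 0.61 against the unprimed array of 8 h; the median moved by more than 1.5-fold in 17 without dim probe sets, 4 with values raised to 4, 2 for probe sets of 1 gene, 4 against the mean of the unprimed arrays and 8 against the unprimed array of 8 h. Counts of lower members in further lists named in the text moved by more than 1.5-fold, and the following are examples. With the shift of 0.22 they fell for histones (7 to 4), AP2 and ERF factors (6 to 3), WRKY factors (5 to 3) and F-box proteins (6 to 3). With that shift they also fell for reactive oxygen (3 to 1), low-oxygen (2 to 0), morning clock (2 to 0) and salicylate genes (2 to 1). Against the mean of the unprimed arrays they fell for NAC factors (8 to 3) and rose for jasmonate genes (1 to 6). Lower jasmonate genes went from 1 to 5 against the unprimed array of 8 h. Higher low-oxygen genes went from 5 to 8 against the unprimed array of 8 h. No paired analysis was possible because each condition had 1 array and the labels give no replicate numbers, and no array could be left out. The planned motif description was not run. Signals near the floor limit what can be said of dim genes.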

Other observations

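Gene lists of surface barriers were added after the values of the lower genes had been seen, and their counts are descriptions only. These lists were not run under the alternative scalings, filters and controls. Of 10 genes of the Casparian strip, the lignin barrier of the root endodermis, 5 were lower at 4 h and none higher, with a median of -0.97. CASP2 to CASP5 were dim, with unprimed values from 2.58 to 3.17. CASP5 and SGN3, both among the 5, were close to the limit at -1.14 and -1.15, and CASP5 was at the floor in primed seedlings. ESB1, a dirigent-domain protein that places the barrier, was at 6.79 against 9.65, CASP1, a scaffold protein of the strip, at 9.03 against 10.37, and PER64 at 4.14 against 8.64, while MYB36, the factor that activates these genes, was at 5.50 against 6.25. At 8 h none of the 10 was lower and 2 were higher. Of 9 suberin synthesis genes, 2 were lower and 1 higher: FAR1, a fatty acyl reductase, was at 9.13 against 6.82, and FAR5, a reductase of the same family, at 4.42 against 5.82.

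Of 19 genes of cutin and wax synthesis, 4 were lower, none was higher and 4 were at the floor in both arrays. The RNA was from whole seedlings, so the tissue of these differences is not known. CER1, an enzyme of alkane synthesis, was at 5.47 against 6.93 and MYB16 at 3.35 against 6.65. Of 12 stomatal lineage genes, 4 were lower and none higher: the secreted peptides EPF1 and EPF2 were at 7.29 against 8.79 and 7.27 against 9.16, the receptor-like protein TMM at 6.27 against 7.73, and the factor MUTE at 2.78 against 4.52. SPCH, which starts the lineage, was at 2.28 in both arrays, and FAMA, which acts at its end, at 6.89 against 7.60.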
